A study of Mus musculus with 6 samples.

Results

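The 38 genes described here encode proteins that fold, import and dispose of proteins in the endoplasmic reticulum (ER) of αTC1 cells. They were chosen by name and by function, as 4 genes of stress sensing (Ern1, Eif2ak3, Atf6 and Xbp1), 14 chaperones and folding enzymes, 12 subunits of the translocon and signal peptidase, and 8 components of ER-associated degradation. The rule held no measured value, but the choice was made with earlier results of these data known. All 38 were found as protein-coding genes among the 55487 genes counted, 21936 of which are protein-coding, and all 38 were among the 15082 genes with enough counts to be tested.

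αTC1 is a mouse line of glucagon-producing α cells, derived from a pancreatic tumour of a transgenic mouse in which the glucagon promoter drove a viral T antigen. RNA was sequenced from 3 libraries of αTC1 cells treated with G786-1089, a small-molecule inhibitor of the splicing factor SMNDC1, and from 3 libraries of αTC1 cells that received its solvent DMSO. All 6 libraries come from this 1 line and are marked WT in both treatments, and the dose and time of the treatment are not given in the sources used here. In the study, the inhibitor used for RNA sequencing was its compound 1, which it calls non-selective and which also affected the paralog SMN. The labels do not state whether G786-1089 is that compound. For its cell culture experiments in general, the study states that cells of 1 batch were divided at random between treatments within each replicate and that the samples of a replicate were handled together. The data columns carry the letters A, B and C in each treatment, and whether a letter stands for such a replicate is not stated. A fit with the letter as a block is therefore given where it ends a call of a gene chosen above. For all other genes no value of this fit is given gene by gene. The p-values measure the spread between these libraries, which may be technical.

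Proteins that are to be secreted enter the ER through the Sec61 channel, lose their signal peptide to signal peptidase, and are folded by the Hsp70 chaperone BiP, the Hsp90 family member GRP94, the lectins calnexin and calreticulin and a family of disulfide isomerases. Chains that do not fold are recognised, passed back to the cytosol through complexes that contain the ubiquitin ligase HRD1 and the derlins, and degraded by the proteasome. When unfolded chains build up, the membrane sensors IRE1, PERK and ATF6 start the unfolded protein response, whose transcription factors XBP1, ATF6 and ATF4 induce many of the genes described here, a system on which hormone-secreting islet cells depend.

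With G786-1089, 8 of 14 chaperone and folding genes, 5 of 12 translocon and signal peptidase genes and Xbp1 fell, whereas 3 members rose. These were Dnajb9, which encodes the BiP co-chaperone ERdj4, and Herpud1 and Derl1, which encode parts of the degradation machinery. By the quasi-likelihood test of edgeR, adjusted over all 15082 genes by the Benjamini-Hochberg method, 14 of the 38 members fell and 3 rose at an adjusted p-value under 0.05, the threshold for every call below. Over all genes tested, 7.8% were called lower and 6.98% higher, against 36.8% and 7.89% of the members. The share of members that rose was thus near that over all genes tested. Among the 4453 genes whose log2 CPM averaged 5 or more, a range that held 26 of the members, 20.77% were called lower and 13.56% higher, while 13 of those 26 members were called lower and 3 higher. The median log2 fold change was -0.36 over the members and 0.04 over all genes tested, with 27 members below 0 and 11 above it. With the libraries scaled by total count alone the median of all genes moved to 0.25, Creld2, Spcs3 and Sel1l changed from below to above 0, and 10 members were called lower and 4 higher.

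Levels are given as the deposited FPKM, fragment numbers scaled to transcript length, which makes genes comparable, and between libraries by factors that lie closer to the count totals after TMM normalization than to the totals alone. Fold changes are of G786-1089 over DMSO on the log2 scale, from the counts, each with its standard error (SE). Summed over the 38 members, the level was 2151, 2245 and 2152 FPKM in the G786-1089 libraries A, B and C and 3009, 3107 and 3017 FPKM in the DMSO libraries. The groups lay well apart in this sum. The summed chaperones lay between 899 and 933 FPKM with G786-1089 and between 1367 and 1452 FPKM with DMSO, and the summed translocon genes between 686.6 and 785.9 FPKM and between 1127 and 1203 FPKM. The summed degradation genes lay higher with G786-1089, at 433 to 456 FPKM, than with DMSO, at 325 to 332 FPKM. Much of that sum was Herpud1, which averaged 271 FPKM with G786-1089 and 171 FPKM with DMSO. Of the 8 degradation genes, 4 had a log2 fold change above 0 and 4 below it, with a median of 0.08. All these sums are over RNA from whole cultures, in which fewer expressing cells and less RNA per cell cannot be told apart.

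**Figure D1:**
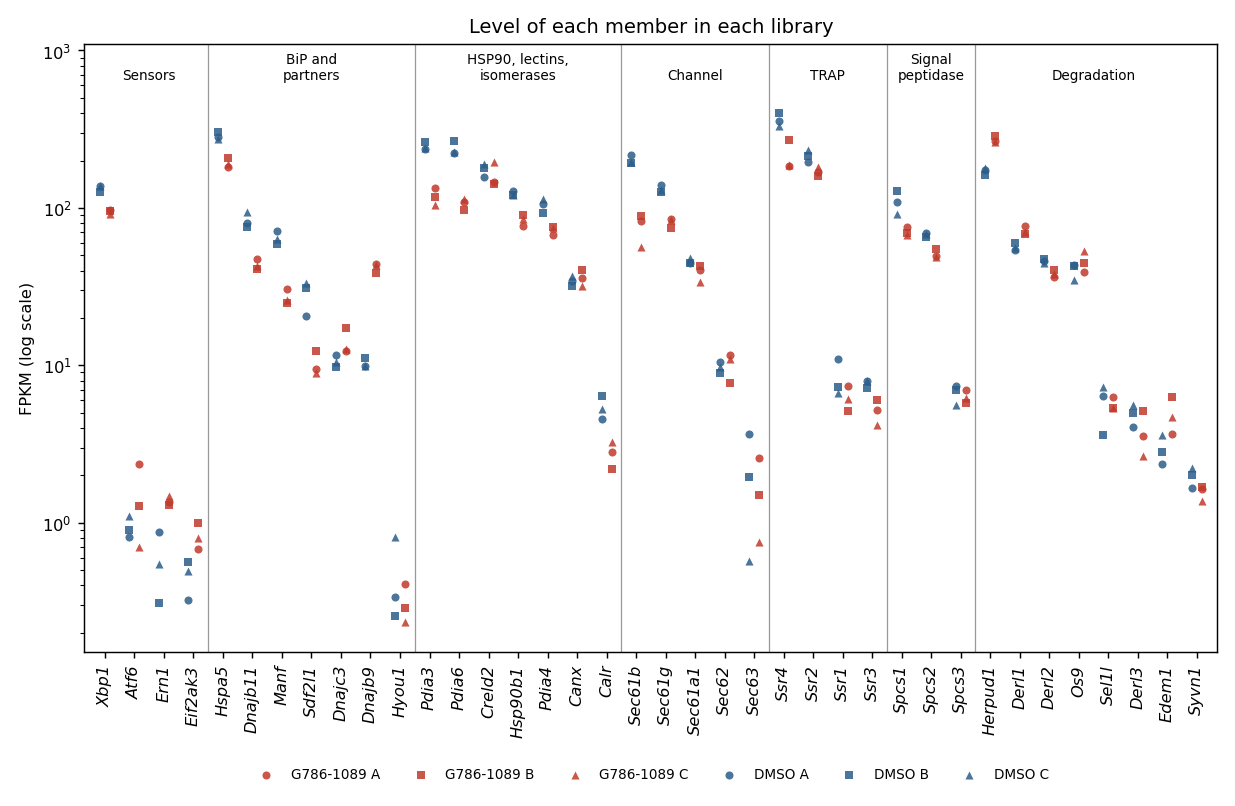
FPKM of each of the 38 members on a log scale, by role, with 1 point for each library (red, G786-1089; blue, DMSO; circle, square and triangle for the letters A, B and C). The red points of Dnajb9 and Herpud1 lie above the blue ones, whereas those of Hspa5, Manf, Pdia3, Pdia6 and Sec61b lie below them; Hyou1, Eif2ak3, Ern1 and Atf6 are near 1 FPKM.

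The libraries held between 59070705 and 94747943 counts, and each G786-1089 library was deeper than each DMSO library. Even numbers made up 78.1% of the counts between 1 and 10, which shows that counts are not independent fragments and that counting statistics understate the error. Glucagon (Gcg), the product that defines the line, was at 2401 to 3024 FPKM with G786-1089 and at 17086 to 19365 FPKM with DMSO, and of 6 tested markers of α cells, Gcg and Irx2 were called lower. Of 23 markers of other cell types, 11 had 0 counts in all 6 libraries, among them Ins1, Pdx1, Sst, Ppy, Cpa1 and Prss2. The other 12 had counts in at least 1 library, up to 4.28 FPKM for the beta cell factor Nkx6-1, 21.8 FPKM for the exocrine gene Cela1 and 13.8 FPKM for the macrophage gene Cd68. The summed markers of exocrine pancreas ranged from 14.0 to 22.6 FPKM with G786-1089 and from 5.18 to 11.9 FPKM with DMSO, most of it from Cela1, those of beta cells from 1.42 to 3.47 FPKM and from 2.75 to 4.82 FPKM, and those of stroma, vessels and immune cells from 6.08 to 14.2 FPKM and from 4.23 to 6.25 FPKM, and their part in the results below was not tested. The mRNA of the target, Smndc1, differed by 0.84 (SE 0.67, adjusted p = 0.481), a measurement that checks nothing because the compound binds the protein.

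Promoters of ER chaperone genes are known for the response elements through which ATF6 and XBP1 act, and a few are shown to see which members carry them. The element ERSE consists of CCAAT, bound by NF-Y, then 9 bases, then CCACG, bound by ATF6. RefSeq promoter windows of GRCm38.p6, from 250 bases before to 50 bases after the annotated start, were at hand for 31 members and searched on both strands. An ERSE stood in 9 of the 31 members (29.0%) and in 0.137% of the 27025 genes with a window. A pair of folding genes that fell, Hspa5 and Pdia6, and a pair that was not called, Canx and Dnajc3, carry it as follows, with the site in capitals, read 5′ to 3′ on the gene's strand.
Hspa5 (chr2:34772020-34772048, plus strand): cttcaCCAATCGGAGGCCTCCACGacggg
Pdia6 (chr12:17266461-17266539, plus strand): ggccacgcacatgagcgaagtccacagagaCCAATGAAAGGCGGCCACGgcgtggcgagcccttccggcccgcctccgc
Dnajc3 (chr14:118937797-118937875, plus strand): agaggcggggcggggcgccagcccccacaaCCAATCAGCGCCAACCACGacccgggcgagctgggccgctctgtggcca
Canx (chr11:50325770-50325848, minus strand): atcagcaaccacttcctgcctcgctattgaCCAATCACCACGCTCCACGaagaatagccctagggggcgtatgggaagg
These sites begin 65, 98, 105 and 145 bases before the RefSeq start of their genes. The site of Hspa5 lies in the first exon of a longer GENCODE transcript, and fewer bases are shown around it. Of the others, Hsp90b1 holds an ERSE on each strand, and Calr, Creld2, Syvn1 and Derl3 hold 1 each. The variant ERSE-II, ATTGG, any base, then CCACG, was found in 0.0444% of genes and in Dnajb11 and Herpud1. ACGTGG, the core of the element bound by XBP1, stood in 9.39% of genes and in 10 of the 31 members, and its reverse strand CCACGT can overlap the CCACG of both other elements. Both genes with the clearest increase are shown with these sites.
Herpud1 (chr8:94386347-94386417, plus strand): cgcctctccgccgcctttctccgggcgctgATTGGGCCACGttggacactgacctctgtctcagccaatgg
Dnajb9 (chr12:44210159-44210188, minus strand): aacaacagttttCCACGTgcgcgtagggcg
The capitals mark ERSE-II in Herpud1, from 52 bases before the start, which is followed by a T so that it also holds CCACGT, and CCACGT in Dnajb9, from 108 bases before the RefSeq start and inside a GENCODE exon. Of the 9 members with an ERSE, 3 fell (Hspa5, Hsp90b1 and Pdia6) and 6 were not called. Their log2 fold changes ran from -1.16 to 0.41, around a median of -0.36. Of the 22 members with a window but no ERSE, 10 fell, 2 rose and 10 were not called, with changes from -1.46 to 2.03 around a median of -0.41.

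Among the sensors, the transcription factor downstream of IRE1 fell and the 3 sensors themselves were not called by edgeR. Xbp1 encodes the factor whose mRNA IRE1 splices outside the nucleus, a splice that gene-level values do not show. Xbp1 was at 97.1, 95.2 and 91 FPKM in the 3 treated libraries and at 138, 126 and 139 FPKM in the 3 DMSO libraries. Every G786-1089 library was below every DMSO library. The difference was -0.51 (SE 0.08, adjusted p = 0.00715), or 70.4% of the DMSO level. Ern1 encodes IRE1 itself. Levels of Ern1 were 1.35, 1.29 and 1.48 FPKM with G786-1089 and 0.872, 0.308 and 0.544 FPKM with DMSO. The treated libraries were all higher, with a log2 fold change of 1.26 (SE 0.42, adjusted p = 0.102), which did not pass the threshold, whereas DESeq2 called it higher (adjusted p = 0.0164). Eif2ak3 encodes PERK, the kinase that slows translation. For Eif2ak3, 0.679, 0.995 and 0.802 FPKM were measured with G786-1089 and 0.324, 0.562 and 0.493 FPKM with DMSO. Here too the groups did not overlap, at a log2 fold change of 0.85 (SE 0.45, adjusted p = 0.282), and 10.02% of the exon bases of Eif2ak3 overlap an antisense transcript that these unstranded counts cannot separate. Atf6 encodes the sensor that is itself cut into a transcription factor. The level of Atf6 was 2.34, 1.27 and 0.703 FPKM in the G786-1089 libraries A, B and C and 0.808, 0.892 and 1.11 FPKM in the DMSO libraries. The highest and the lowest of its values were both treated libraries, and the log2 fold change of 0.62 (SE 0.47, adjusted p = 0.452) was not called.

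Among the 7 genes of BiP and its partners, 4 fell, 1 rose and 2 were not called. Hspa5 (ENSMUSG00000026864, chr2:34771970-34777547) encodes BiP, the Hsp70 chaperone of the ER and the protein that holds the sensors inactive. Hspa5 was at 183, 206 and 189 FPKM in the 3 treated libraries and at 284, 305 and 273 FPKM in the 3 DMSO libraries. All 3 treated libraries were lower than all 3 DMSO libraries. Its log2 fold change was -0.57 (SE 0.07, adjusted p = 0.00342), a fall to 67.3% of the DMSO level, and its ERSE is the first of those printed above. Dnajb11 encodes ERdj3, which delivers unfolded chains to BiP. Levels of Dnajb11 were 47.6, 41 and 42.5 FPKM with G786-1089 and 80.6, 75.3 and 93.9 FPKM with DMSO. The groups were again separate, at -0.93 (SE 0.11, adjusted p = 0.00354). Manf encodes a small secreted protein that binds BiP and is kept in the ER by it. For Manf, 30.4, 24.7 and 26.2 FPKM were measured with G786-1089 and 71.1, 59.2 and 63.8 FPKM with DMSO. The groups were widely separated, and the log2 fold change was -1.25 (SE 0.13, adjusted p = 0.00175). Sdf2l1, which forms a complex with ERdj3, had the largest fall of any member. The level of Sdf2l1 was 9.52, 12.3 and 8.91 FPKM in the G786-1089 libraries A, B and C and 20.5, 30.8 and 33.5 FPKM in the DMSO libraries. The DMSO libraries differed more among themselves here than for the other called genes, and the groups still did not overlap. The change of -1.46 (SE 0.26, adjusted p = 0.0135) missed the threshold without G786-1089 A (adjusted p = 0.0512), G786-1089 C (0.0535), DMSO B (0.0541) or DMSO C (0.0562).

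Dnajb9 (ENSMUSG00000014905, chr12:44205559-44210326) was the member with the largest increase. It encodes ERdj4, a BiP co-chaperone that also takes part in degradation and in keeping IRE1 silent. Dnajb9 was at 44.1, 38.3 and 43.3 FPKM in the 3 treated libraries and at 9.89, 11.2 and 9.86 FPKM in the 3 DMSO libraries. Each treated library was over 3 times each DMSO library. The log2 fold change was 2.03 (SE 0.13, adjusted p = 0.00036), a rise to 4.08-fold, and Dnajb9 ranked 750 of the 15082 genes tested by increase. Dnajc3 encodes p58IPK, another BiP co-chaperone and an inhibitor of PERK. Levels of Dnajc3 were 12.4, 17.2 and 12.7 FPKM with G786-1089 and 11.6, 9.8 and 10.5 FPKM with DMSO. Although the groups did not overlap, the change of 0.41 (SE 0.17, adjusted p = 0.164) was not called. Hyou1, the exchange factor that releases nucleotide from BiP, was listed at only 0.234 to 0.816 FPKM in the 6 libraries, with overlapping groups and an adjusted p of 0.625.

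Of the 7 members among the HSP90, lectin and isomerase genes, 4 fell and 3 were not called. Pdia6 encodes a disulfide isomerase that also attenuates IRE1 and PERK. For Pdia6, 109, 97.6 and 114 FPKM were measured with G786-1089 and 225, 267 and 225 FPKM with DMSO. The treated values lay closer together than the DMSO values and well below them. Its log2 fold change was -1.16 (SE 0.11, adjusted p = 0.00114), the smallest adjusted p of the members that fell. Pdia3, also called ERp57, works with calnexin and calreticulin on glycoproteins. The level of Pdia3 was 134, 117 and 105 FPKM in the G786-1089 libraries A, B and C and 236, 264 and 239.9 FPKM in the DMSO libraries. With no overlap between groups, it differed by -1.05 (SE 0.11, adjusted p = 0.00165). Hsp90b1 encodes GRP94. Hsp90b1 was at 76.6, 90.2 and 85.6 FPKM in the 3 treated libraries and at 127, 120.0 and 121 FPKM in the 3 DMSO libraries. The fall of 0.54 on the log2 scale (SE 0.08, adjusted p = 0.00787) was close in size to that of Hspa5. An antisense gene overlaps Hsp90b1, so that 21.6% of its exon bases are shared with other genes, but the antisense gene had 5695 counts over the 6 libraries against 136367 for Hsp90b1. Pdia4 encodes the isomerase ERp72. Levels of Pdia4 were 67.2, 76 and 74.6 FPKM with G786-1089 and 106, 92.4 and 114 FPKM with DMSO. The groups did not overlap, at -0.52 (SE 0.10, adjusted p = 0.021). Pdia4 was no longer called when G786-1089 A, B or C or DMSO A or C was left out, with adjusted p-values of 0.0639, 0.0501, 0.0569, 0.0741 and 0.0714, or with the replicate block by letter (0.0638).

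The lectins and Creld2 were not called by edgeR. Calr, which encodes calreticulin, was at only 2.2 to 3.25 FPKM with G786-1089 and 4.59 to 6.37 FPKM with DMSO, with separate groups and a log2 fold change of -0.97 (SE 0.30, adjusted p = 0.0803). Calr was called lower by DESeq2 (adjusted p = 0.00165) and by limma-trend on FPKM of at least 1 (0.0332 and 0.0317 with pseudocounts of 1 and 0.1). Canx, which encodes the membrane-bound lectin calnexin, was more abundant and more stable. For Canx, 35.9, 40.4 and 31.7 FPKM were measured with G786-1089 and 34.1, 32 and 36.7 FPKM with DMSO. The groups overlapped, and the log2 fold change of 0.07 had an SE of 0.12 (adjusted p = 0.741). Creld2, a gene known to respond to ER stress, ranged from 141 to 196 FPKM with G786-1089 and from 157 to 190 FPKM with DMSO (adjusted p = 0.675).

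**Figure D2:**
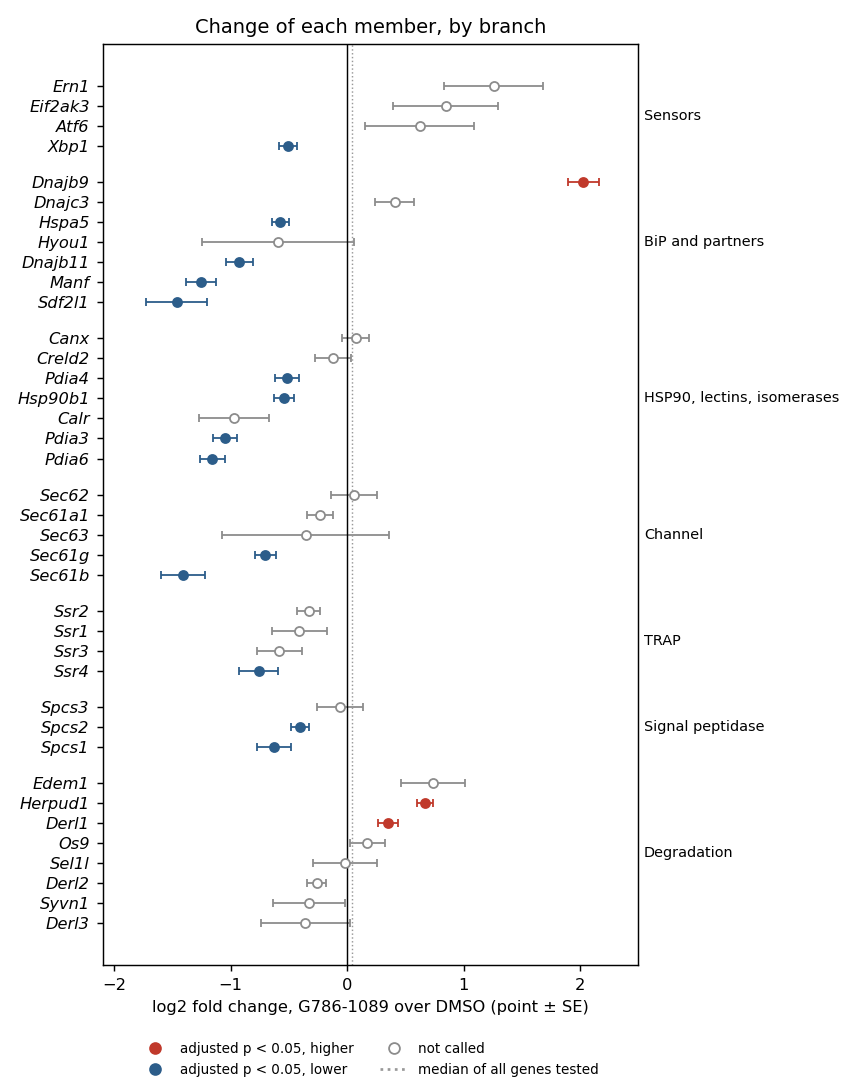
log2 fold change of each member, G786-1089 over DMSO, with its SE as a horizontal bar, grouped by role; filled points passed an adjusted p of 0.05 (red higher, blue lower), open points did not, and the dotted line is the median of all genes tested. Filled points of the chaperone and translocon groups are blue with the exception of Dnajb9 at 2.03, and both filled points of the degradation group are red.

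In the translocon, 5 of 12 members fell and 7 were not called. The channel consists of the pore Sec61a1 and the small subunits Sec61b and Sec61g. The level of Sec61b was 82.7, 88.3 and 56.1 FPKM in the G786-1089 libraries A, B and C and 216, 194 and 195 FPKM in the DMSO libraries. The highest treated value was less than the lowest DMSO value by a wide margin. Sec61b changed by -1.41 (SE 0.19, adjusted p = 0.00472), to 37.7% of its DMSO level. With gene length offsets, which adjust each library for a trend with gene length, the change was -1.13. With these offsets and the replicate block together Sec61b was not called (edgeR adjusted p = 0.0542). Sec61g was at 84.5, 74.7 and 83.3 FPKM in the 3 treated libraries and at 139, 127 and 129 FPKM in the 3 DMSO libraries. These groups were also apart, at -0.70 (SE 0.09, adjusted p = 0.0041). Sec61b and Sec61g have near-identical copies elsewhere in the genome, the most highly counted of which had 372 counts against 34508 for Sec61b and 3650 against 96517 for Sec61g. Levels of Sec61a1 were 40.1, 42.6 and 34 FPKM with G786-1089 and 44.7, 44.7 and 48.1 FPKM with DMSO. All treated values lay below the DMSO values, but by less, and the log2 fold change of -0.23 (SE 0.11, adjusted p = 0.231) was not called. An antisense gene that overlaps 17.3% of the exon bases of Sec61a1 had 0 counts. Of the partners that help chains into the channel after translation, Sec62 ranged from 7.74 to 11.6 FPKM over the 6 libraries and Sec63 from 0.573 to 3.67 FPKM, both with overlapping groups (adjusted p = 0.889 and 0.802).

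The TRAP complex, which sits beside the channel, is encoded by Ssr1, Ssr2, Ssr3 and Ssr4, and Ssr4 was the most abundant of the 38 members in DMSO cells. For Ssr4, 184, 271 and 188 FPKM were measured with G786-1089 and 357, 399 and 332 FPKM with DMSO. No value was shared between groups, although G786-1089 B stood above the other treated libraries. The log2 fold change was -0.76 (SE 0.17, adjusted p = 0.0276). Ssr4 lost its call without G786-1089 A (adjusted p = 0.0823), G786-1089 C (0.0925), DMSO A (0.0804), DMSO B (0.0912) or DMSO C (0.0618). Gene length offsets also ended this call, at a log2 fold change of -0.53. Ssr2 and Ssr3 were lower in every treated library but not called by the main edgeR fit, at -0.33 (SE 0.10, adjusted p = 0.0711) and -0.58 (SE 0.19, adjusted p = 0.102). DESeq2 called both lower (adjusted p = 0.00722 and 0.00953), and edgeR with gene length offsets called Ssr3 lower (log2 fold change -0.76). Ssr2 shares near-identical sequence with Rtraf and a processed pseudogene, so reads of Ssr2 could be split. The groups of Ssr1 overlapped, at 5.12 to 7.41 FPKM and 6.65 to 10.9 FPKM.

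Signal peptidase is a complex that cuts the signal peptide from chains as they enter the ER. Spcs2 encodes an accessory subunit. The level of Spcs2 was 49.4, 54.6 and 48.8 FPKM in the G786-1089 libraries A, B and C and 68.8, 65.3 and 68.7 FPKM in the DMSO libraries. The groups were separate and tight, at -0.40 (SE 0.08, adjusted p = 0.0204). Spcs1, which encodes another, had a wider range in the DMSO libraries. Spcs1 was at 75.7, 69.5 and 67.2 FPKM in the 3 treated libraries and at 109.7, 127 and 91.2 FPKM in the 3 DMSO libraries. Its log2 fold change was -0.63 (SE 0.14, adjusted p = 0.0323), and 19.5% of its exon bases overlap the antisense gene Glt8d1. Spcs3, also a subunit, ranged from 5.56 to 7.34 FPKM over the 6 libraries with no separation (adjusted p = 0.878). Spcs2 was not called without G786-1089 A or C or DMSO A, B or C (adjusted p = 0.0611, 0.0599, 0.0750, 0.0541 and 0.0709), and Spcs1 was not called without G786-1089 A, B or C or DMSO A or B (0.0650, 0.0904, 0.0972, 0.0933 and 0.0847). With the replicate block neither was called (0.0767 for Spcs2 and 0.0666 for Spcs1). Gene length offsets also ended the call of Spcs1, at a log2 fold change of -0.48.

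Among the 8 degradation genes, 2 rose and 6 were not called, while 6.98% of all genes tested were called higher. Herpud1 (ENSMUSG00000031770, chr8:94386438-94395377) encodes a membrane protein that assembles the degradation complex around HRD1. Levels of Herpud1 were 266, 284 and 263 FPKM with G786-1089 and 174, 162 and 178 FPKM with DMSO. Every treated library exceeded every DMSO library by more than the spread within either group. The log2 fold change was 0.67 (SE 0.07, adjusted p = 0.00184), and Herpud1 moved from rank 8 of the 38 members by mean FPKM with DMSO to rank 1 with G786-1089. Derl1 encodes derlin-1, a membrane protein through which chains return to the cytosol. For Derl1, 76.6, 68.6 and 70.3 FPKM were measured with G786-1089 and 54.3, 59.6 and 55.4 FPKM with DMSO. The treated libraries were higher without overlap, by 0.35 on the log2 scale (SE 0.09, adjusted p = 0.0407). That call was lost when any 1 library was left out, with adjusted p-values of 0.103, 0.0628 and 0.0822 without G786-1089 A, B and C and 0.137, 0.0728 and 0.128 without DMSO A, B and C, and also with the replicate block (0.117). Gene length offsets ended it as well, at a log2 fold change of 0.23. A processed pseudogene nearly identical to Derl1 had 582 counts against 99988 for Derl1.

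The remaining degradation genes included the core of the complex. Edem1 encodes a lectin-like protein that directs misfolded glycoproteins to degradation. The level of Edem1 was 3.68, 6.26 and 4.69 FPKM in the G786-1089 libraries A, B and C and 2.36, 2.8 and 3.62 FPKM in the DMSO libraries. It was higher in each treated library but not called by edgeR, at 0.74 (SE 0.27, adjusted p = 0.129), while DESeq2 gave an adjusted p of 0.0406. Derl2, a second derlin, was at 36.2 to 40.3 FPKM with G786-1089 and at 44.4 to 47.1 FPKM with DMSO, opposite in direction to Derl1. The main edgeR fit did not call Derl2 (adjusted p = 0.0855). It was called lower by DESeq2 (0.00213) and by edgeR with gene length offsets (log2 fold change -0.47). Sel1l, the adaptor of HRD1, and Syvn1, which encodes HRD1, had overlapping groups and log2 fold changes of -0.02 (SE 0.27) and -0.32 (SE 0.31), with adjusted p-values of 0.975 and 0.565. Derl3, the other derlin, and Os9, a lectin of the ER lumen, likewise overlapped between groups (adjusted p = 0.617 and 0.526).

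All 17 called members had a mean of at least 10.3 FPKM in DMSO cells, while 14 of the 21 members not called were under 10 FPKM. The median SE was 0.23 among members not called and 0.11 among those that fell. For Ern1, Eif2ak3, Atf6, Hyou1, Calr, Sec63, Syvn1 and Derl3 (SE 0.30 to 0.72) a change of the size of that of Hspa5 would be under 2 SE and was not detectable. Such a change could also go uncalled at a smaller SE, as that of Ssr3 did (-0.58, SE 0.19, edgeR adjusted p = 0.102). The filter in the methods of the study, which is looser in the adjusted p (at most 0.1) and asks for a log2 fold change of at least 1 in size, was passed by Dnajb9 upward and by Sdf2l1, Manf, Pdia3, Pdia6 and Sec61b downward. Over all genes tested, 6.25% passed it upward and 4.16% downward. Values of all treated libraries were higher than those of all DMSO libraries for 7 members, against 18.2% of genes tested, and lower for 19 members, against 18.5%. An exact permutation test of 3 libraries against 3 cannot give a two-sided p below 0.1 for any 1 gene.

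Ratios between members within a library do not depend on how libraries are scaled. The level of Dnajb9 per Hspa5 was 0.241, 0.186 and 0.229 with G786-1089 and 0.0349, 0.0366 and 0.0361 with DMSO. For Herpud1 per Hspa5 the ratios were 1.45, 1.38 and 1.39 with the compound and 0.613, 0.53 and 0.653 with DMSO. Treated cells thus held more Herpud1 than Hspa5 per length, and DMSO cells less. Derl1 per Hspa5 was 0.418, 0.333 and 0.372 against 0.191, 0.196 and 0.203, also without overlap. Set against Canx, which was not called, Dnajb9 and Herpud1 remained apart between groups (0.948 to 1.36 against 0.269 to 0.348, and 7.03 to 8.28 against 4.85 to 5.10), but Derl1 overlapped (1.70 to 2.22 against 1.51 to 1.86). By contrast, Hsp90b1 per Hspa5 (0.418 to 0.453 against 0.394 to 0.448) and Xbp1 per Hspa5 (0.462 to 0.531 against 0.414 to 0.508) overlapped between groups, so these 3 mRNAs fell by amounts that the libraries do not separate. Within the channel, Sec61b per Sec61a1 was 2.06, 2.07 and 1.65 with G786-1089 and 4.82, 4.33 and 4.04 with DMSO. The ratio in every treated library thus lay below that in every DMSO library, while Sec61a1 itself was not called.

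**Figure D3:**
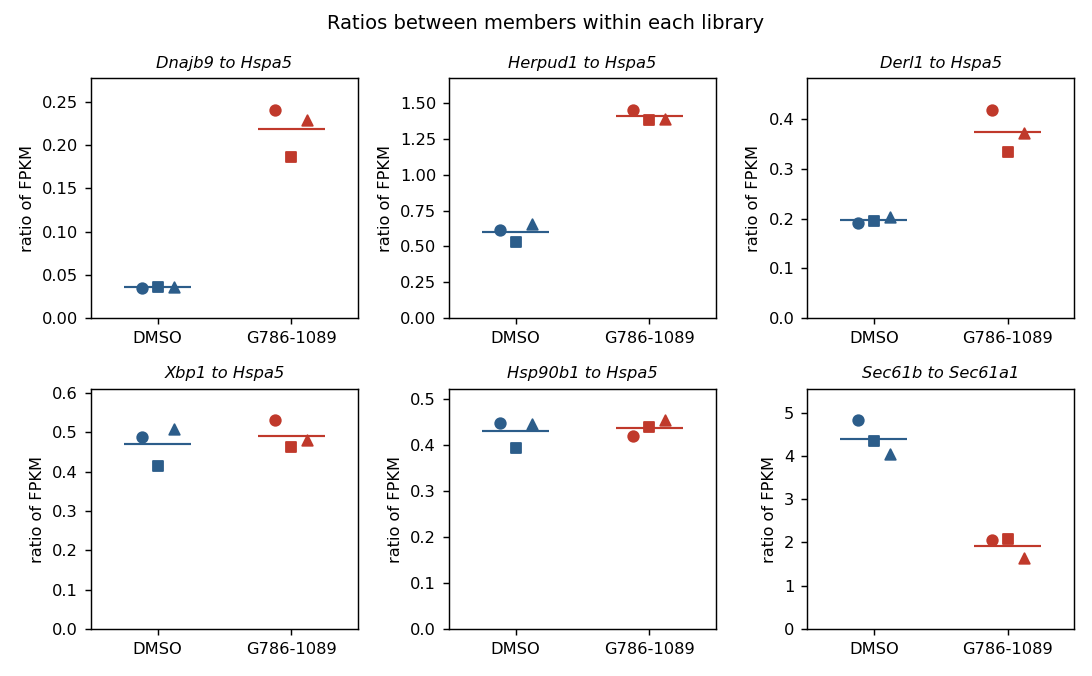
Ratio of FPKM between pairs of members within each library, from 0 upward, with DMSO in blue and G786-1089 in red (circle, square and triangle for the letters A, B and C; horizontal line, mean of 3 libraries). Dnajb9, Herpud1 and Derl1 per Hspa5 and Sec61b per Sec61a1 are separated between groups, with means of 0.219 and 0.0359 for Dnajb9 per Hspa5, whereas Xbp1 and Hsp90b1 per Hspa5 overlap.

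Other genes of the pathway were examined in 8 lists written from general knowledge, with earlier results of these data known. In these lists 13 of 122 tested genes rose and 16 fell (17 called in all with the replicate block), with a median log2 fold change of -0.02. Which of these calls the block ended is not given, so a gene named below from these lists may lose its call with it. Over all genes tested, 6.98% were called higher and 7.8% lower, the shares to set beside each list. The oligosaccharyltransferase, which attaches glycans to chains at the translocon, had 6 of 12 subunit genes lower and the other 6 not called, with a median of -0.55. Ddost was at 429, 419 and 380.4 FPKM with G786-1089 and at 628, 618 and 613 FPKM with DMSO, all treated values lower (-0.59, SE 0.06, adjusted p = 0.00167), and Krtcap2 (-0.59, SE 0.08, adjusted p = 0.00563) and Ostc (-0.99, SE 0.14, adjusted p = 0.00515) were also lower. Of 18 genes for signal recognition and targeting, 2 fell, a share near that over all genes tested, and 16 were not called. The former were Sec11c, a catalytic subunit of signal peptidase, by 0.66 (SE 0.10, adjusted p = 0.00727), and Srp9 of the signal recognition particle, by 0.58 (SE 0.09, adjusted p = 0.00945), both on the log2 scale. In the ER membrane complex, 1 of 10 genes, Emc6, fell (-0.44, SE 0.10, adjusted p = 0.0283), also near that share.

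Of 33 folding enzymes outside the members, 3 rose and 4 fell, shares near the 6.98% and 7.8% over all genes tested. Ero1l, the oxidase that drives disulfide formation, was the clearest of them. Ero1l was at 17.2, 15.4 and 16.1 FPKM in the 3 treated libraries and at 3.06, 3.57 and 2.48 FPKM in the 3 DMSO libraries. Its groups were far apart, at 2.42 (SE 0.19, adjusted p = 0.000603), while P4hb, the disulfide isomerase that it is best known to oxidise and which is named after its value was seen, differed by 0.05 (SE 0.07, adjusted p = 0.731). Serp1, a translocon-associated protein, and Prdx4, an ER peroxidase, fell by 0.64 (SE 0.11, adjusted p = 0.0135) and 0.53 (SE 0.10, adjusted p = 0.0168) on the log2 scale. Other degradation factors had 2 of 27 genes higher and 1 lower, shares near or below those over all genes tested. The former were the ubiquitin ligases Rnf185 (1.51, SE 0.17, adjusted p = 0.00251) and Rnf139 (0.78, SE 0.20, adjusted p = 0.0458). The latter was Vcp, the ATPase that pulls chains from the membrane (-0.73, SE 0.11, adjusted p = 0.00666). Of 5 receptors for autophagy of the ER, Retreg1 (1.05, SE 0.22, adjusted p = 0.0235) and Tex264 (0.52, SE 0.11, adjusted p = 0.0223) rose and Rtn3 fell (-0.68, SE 0.10, adjusted p = 0.00658). The 5 other transducers and proteases of the stress response that were tested had adjusted p-values of 0.168 to 0.935.

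The list of PERK branch effectors contrasted with the chaperones, with 6 of 12 genes higher and 1 lower, against 6.98% and 7.8% of all genes tested. The 5 not called, of which 2 are named here after their values were seen, included Atf4 and Asns. Their log2 fold changes were 0.46 (SE 0.13, edgeR adjusted p = 0.0592) and -0.05 (SE 0.07, adjusted p = 0.742). Whether PERK acted on the genes of this list was not tested. Ddit3 encodes CHOP, a transcription factor induced through ATF4. Levels of Ddit3 were 270.0, 296 and 340.2 FPKM with G786-1089 and 23.2, 18.9 and 17.3 FPKM with DMSO. The log2 fold change was 3.94 (SE 0.16, adjusted p = 0.000102), without overlap. Trib3 and Nupr1, both known targets of this branch, rose by 2.82 (SE 0.17, adjusted p = 0.000246) and 2.95 (SE 0.20, adjusted p = 0.000412) on the same scale. Chac1, which is also a known target of ATF4 and is named here after its value was seen, went the other way (-0.79, SE 0.16, adjusted p = 0.0221).

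**Figure D4:**
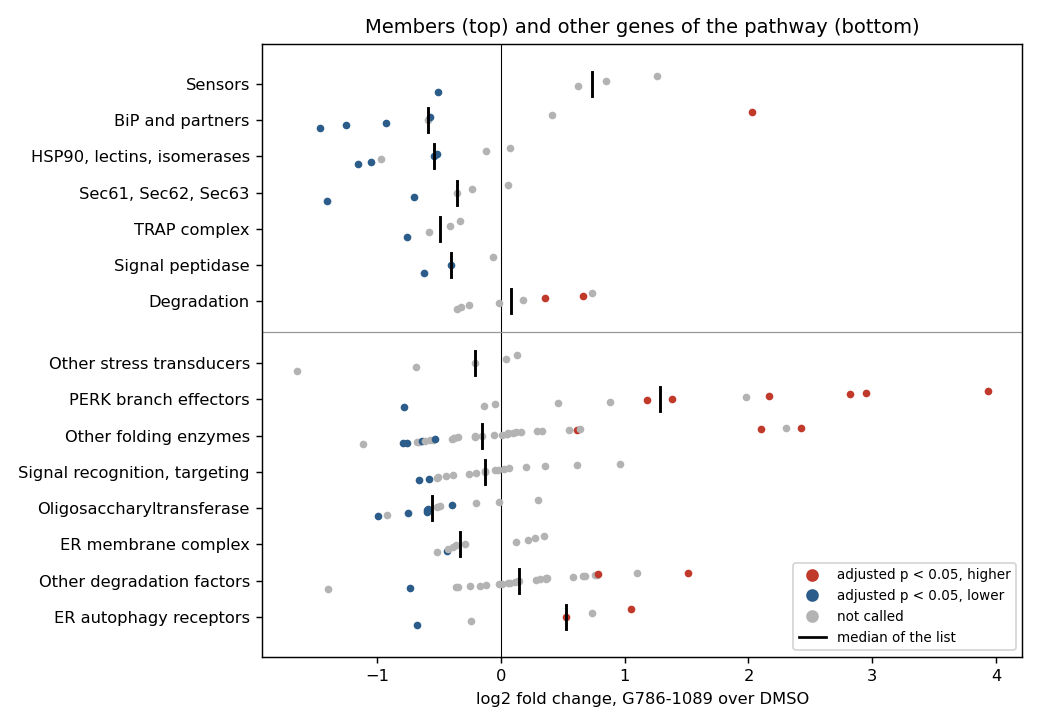
log2 fold change, G786-1089 over DMSO, of each tested gene in the 7 groups of members (top) and the 8 lists of other pathway genes (bottom), with 1 point for each gene (red, called higher; blue, called lower; grey, not called) and a black bar at the median of the list. Medians of the BiP, isomerase, translocon, signal peptidase and oligosaccharyltransferase groups lie below 0 and the median of the PERK branch effectors is at 1.28.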

How the data were processed

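The study prepared 6 Smart-seq2 libraries of αTC1 cells, which are primed at the poly(A) tail and do not keep strand, and sequenced them as paired 100 bp reads. The authors aligned these to GRCm38 with STAR 2.7.9a (version per the submitters' processing notes) and deposited raw gene counts, summed from Ensembl 100 transcripts irrespective of strand. FPKM values were also deposited by the authors, and how they were made is not given in the sources used here. Between libraries, counts divided by FPKM gave 1 constant factor in 100% of 23783 genes, within a relative tolerance of 1e-04.

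The G786-1089 and DMSO libraries were compared in R 4.3.3 with edgeR 4.0.16 (filterByExpr at its count minimum of 10 and total minimum of 15, TMM, quasi-likelihood test, Benjamini-Hochberg adjustment over 15082 genes). To obtain the SE, the size of the log2 fold change was divided by the root of F. Replicate libraries differed by far more than sampling noise (chi-square between 76.5 and 156 per degree of freedom). Alternatives were DESeq2 1.42.0, RLE or library size scaling, other count filters, gene length offsets, limma-trend (limma 3.58.1) on log2(FPKM + 1) or log2(FPKM + 0.1), a block by column letter, and each library left out in turn. The fits were tested on simulated data. Overlaps come from GENCODE vM21, copies of at least 100 bases at 95% identity from blastn 2.17.0, and promoters from RefSeq, matched by symbol for 31 of 38 members.

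Members and lists were chosen with earlier results of these data known. All members may be named. The genes given library by library are the sensors, Hspa5 and up to 4 called members of each group with the smallest p, and from other lists up to 3 called genes with the smallest p. Other members are given where they complete a complex.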

Additional observations from a re-analysis of the deposited data

How the results depend on the processing

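Of the 17 called members, 10 were called under all 17 alternatives (Xbp1, Hspa5, Dnajb9, Dnajb11, Manf, Hsp90b1, Pdia3, Pdia6, Sec61g and Herpud1), Sec61b under 16, and none changed direction under any. Members called numbered 17, 11 to 14 with 1 library left out and 11 with a replicate block and gene length offsets. The block and offsets together did not call Derl1, Pdia4, Sdf2l1, Sec61b, Spcs1 and Ssr4. Gene length offsets alone ended the calls of Derl1, Spcs1 and Ssr4 and added Derl2 and Ssr3 as lower. DESeq2 called 5 members higher and 18 lower, the added ones being Calr, Derl2, Edem1, Ern1, Ssr2 and Ssr3, and limma-trend on FPKM of at least 1 called 3 higher and 16 lower with a pseudocount of 1 and 2 higher and 16 lower with 0.1. Calls over all genes numbered 2230, 1253 to 1556 with 1 library left out, 4276 with DESeq2, 1232 with the replicate block and 995 with the block and length offsets. Of the other pathway genes 29 were called, 18 to 24 with 1 library left out, 49 with DESeq2, 17 with the replicate block and 16 with the block and length offsets. Only the column letters could serve for pairing, and libraries of the same letter did not deviate together (correlations of -0.018, 0.004 and 0.014 over 7900 genes). The replicate block called 13 members, without Derl1, Pdia4, Spcs1 and Spcs2. With library size scaling, 67.2% of calls over all genes were higher, against 47.2% with TMM, and Pdia4, Spcs1, Spcs2 and Ssr4 were not called (adjusted p = 0.0950, 0.105, 0.142 and 0.0626).

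Direction changed only for members that were not called. With gene length offsets, alone and with the block, Canx was at -0.13 and -0.14 and Sec62 at -0.12 and -0.14, and Creld2 was at 0.0116 with the offsets alone. With library size scaling Creld2 was at 0.0886, Spcs3 at 0.14 and Sel1l at 0.19. Sel1l was at 0.0396 with the replicate block and at 0.0223, 0.0349 and 0.0223 by limma-trend. With 1 library left out, Hyou1 ranged from -0.89 to 0.0669, Canx from -0.011 to 0.16, Sec62 from -0.0558 to 0.22, Sec63 from -0.88 to 0.35, Spcs3 from -0.18 to 0.0168 and Sel1l from -0.27 to 0.19. The causes were not tested. Of the 21 members not called, 14 were under 10 FPKM, and the median SE of the 21 was 0.23.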

Other observations

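An ERSE also stood in the promoter windows of 28 genes that are not members. Of these, 11 were tested, 1 was called higher and 1 lower, and 9 were not called, with a median log2 fold change of 0.18. The oxidase Ero1lb, a paralog of Ero1l with an ERSE, differed by -0.68 (SE 0.36, edgeR adjusted p = 0.276), and Alg12, whose window lies beside that of Creld2, by 0.12 (SE 1.02, adjusted p = 0.954). The called genes, named after their values were seen, were Adcy3 (3.02, SE 0.60, adjusted p = 0.0201) and Hnrnpa3 (-1.30, SE 0.24, adjusted p = 0.0153).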
